A study of Rattus norvegicus with 62 samples.

Results

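The hippocampus of rats given phenytoin was compared with that of rats given levetiracetam, both antiepileptic drugs, after 90 days of treatment. Of the 62 rat brain arrays used, 14 entered the comparison: all 7 labelled phenytoin hippocampus and all 7 labelled levetiracetam hippocampus, chosen by their labels and not by any measured value. Male Wistar rats received phenytoin at 75 mg/kg or levetiracetam at 150 mg/kg, each 2 times a day by gastric tube, and 7 further rats received control solution in the same way for the same time. The labels add "x 2" to both doses, so the daily total is not settled. The doses differ and no drug level in blood or brain was used here, so a difference is one between these regimens. The remaining arrays hold brainstem and frontal cortex of the same 3 treatments, and the labels do not say whether the regions of a treatment came from the same rats. Ages are not given in the labels, which also describe no seizure model.

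Phenytoin binds voltage-gated sodium channels and holds them in an inactivated state, which limits fast repetitive firing. Levetiracetam binds Sv2a, a glycoprotein of synaptic vesicles that takes part in transmitter release. The hippocampus, built of the dentate gyrus and the CA fields, is a frequent site of seizure onset and holds dense glutamatergic circuits. Total RNA of whole tissue was measured, so that fewer cells of a type and less RNA per cell cannot be told apart.

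Levels are given as log2 intensity after quantile normalization, so that a difference of 1 is a doubling. Differences are phenytoin minus levetiracetam on the log2(value + 16) scale, which understates the change of dim genes. Each was tested two-sided with limma on all 21 hippocampus arrays, and a probe set passed at a Benjamini-Hochberg adjusted p under 0.05 over the 18625 tested. The labels do not describe how tissue was taken, and the p-values cover only the spread among these arrays.

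Phenytoin array 7 stood apart from the other phenytoin arrays, with the lowest weight of the 21 hippocampus arrays (0.151) and a mean correlation of 0.935 with its group, against 0.971 to 0.974 for the other 6. Its mean level over 19 CA field pyramidal cell markers was 7.93, below the 9.15 to 9.32 of the other 6 phenytoin arrays. Over the markers of striatum and thalamus it was 8.78, above their 7.01 to 7.23, and over oligodendrocyte markers it was 10.41, above their 9.18 to 9.60. The other 13 arrays carried the defining markers of hippocampus at clear levels, with means of 9.08 to 9.21 for the CA list on the levetiracetam arrays. Phenytoin array 4 has no value for 4799 probe sets, which were left missing, 1927 of them among those tested. Calls lost without array 7, and values or list counts that it moved most, are given with and without it.

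Measures of RNA quality differed between the drugs. The Gapdh signal at the transcript's 3' end exceeded that at its 5' end by a log2 value of 0.39 on the phenytoin arrays (SD 0.10, n = 7) and by 0.27 on the levetiracetam arrays (SD 0.03, n = 7) (two-sided exact permutation p = 0.00932, adjusted over 4 measures 0.0186). For beta-actin this log2 ratio was 1.45 ± 0.16 against 1.28 ± 0.12 (n = 7 each, exact permutation p = 0.0431, adjusted 0.0575). The mean log2 intensity of the spike-in hybridisation controls ran from 10.48 to 10.85 with phenytoin and from 10.97 to 11.31 with levetiracetam, with no overlap (exact permutation p = 0.000583, adjusted 0.00233, the smallest that 7 against 7 arrays allow). The median deposited intensity averaged 52.3 in both groups (exact permutation p = 1). A labelling or hybridisation difference and the drug cannot be told apart through the spike-ins. With the Gapdh ratio as a covariate 956 of the probe sets passed in place of 3123, and the counts of that fit are given with the gene groups below. Its part in the results was not tested further.

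Phenytoin and levetiracetam hippocampus differed in 3123 of 18625 probe sets (16.8%), 1492 higher with phenytoin (8.01%) and 1631 lower (8.76%). The differences were small: their median size was 0.38, a 1.30-fold change, and only 8 higher and 14 lower probe sets passed 2-fold. At an unadjusted p under 0.05 there were 5919. The median over all tested probe sets was -0.0043. On 338 probe sets (1.81%) every phenytoin array lay above every levetiracetam array, and on 345 (1.85%) every one lay below. Taking the brightest probe set of each of 10265 named genes, 970 genes were higher (9.45%) and 810 lower (7.89%) with phenytoin, and these shares are the background for the gene lists below. Among the 3775 dimmer probe sets of genes with several, 156 were higher (4.13%) and 473 lower (12.5%), so that the dimmer ones held more lower than higher calls.

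Each drug group can be set beside the 7 control arrays, which both comparisons share. Against control, 1721 probe sets passed with phenytoin (847 higher, 874 lower) and 0 with levetiracetam in the same limma fit, although 1680 had an unadjusted p under 0.05 there. Without phenytoin array 7 the number that differed between the drugs was 3447, of which 2688 were among the 3123.

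**Figure D1:**
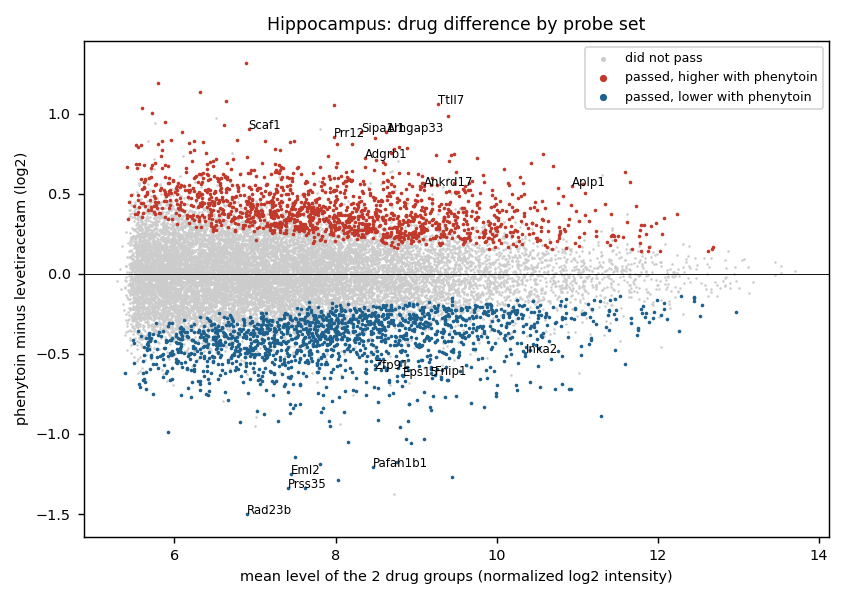
Difference between phenytoin and levetiracetam hippocampus (log2, vertical axis) against the mean level of both groups (normalized log2 intensity, horizontal axis), 1 point for each of 18625 probe sets. Red points passed and were higher with phenytoin (1492), blue points passed and were lower (1631), grey points did not pass, and the largest named decrease is Rad23b at -1.50.

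The 12 genes with the smallest p that were higher with phenytoin are given first, beginning with 4 of the cell surface and of signalling. Adgrb1 encodes an adhesion G protein-coupled receptor of synapses and phagocytic cells. Its level ran from 8.40 through a median of 8.73 to 9.03 with phenytoin and from 7.78 through 8.01 to 8.23 with levetiracetam, a difference of 0.72 ± 0.08 (SE), or 1.65-fold (limma adjusted p = 3.99e-05). No array of either group reached into the range of the other, and the control mean of 8.42 lay between them.

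Aplp1, a neuronal relative of the amyloid precursor protein, ran from 11.03 through 11.22 to 11.42 with phenytoin and from 10.55 through 10.65 to 10.84 with levetiracetam (0.55 ± 0.07, limma adjusted p = 4.11e-05). Sipa1l1, a Rap GTPase-activating protein of the postsynaptic density, ran from 8.44 through 8.76 to 8.99 against 7.56 through 7.85 to 8.23 (0.89 ± 0.11, adjusted p = 4.5e-05). Both pairs of ranges are separate, and for Sipa1l1 the levetiracetam mean of 7.88 and the control mean of 7.89 are nearly equal. Bcr, a GTPase regulator also found at synapses, ran from 9.60 through 9.78 to 10.20 against 8.93 through 9.21 to 9.28, a difference of 0.64 ± 0.08. Phenytoin array 7 held the highest Bcr value, and the groups were separate without it as well.

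Among the other higher genes several work in the nucleus. Prr12, a proline-rich nuclear protein, was higher by 0.86 ± 0.10, Chd3, a chromatin remodeller of the NuRD complex, by 0.79 ± 0.10, Supt5h, an elongation factor of RNA polymerase II, by 0.51 ± 0.07, and Myt1l, a zinc finger factor that keeps neuronal identity, by 0.42 ± 0.06. Ankrd17, an ankyrin repeat protein, was higher by 0.55 ± 0.07. On all 5 of these genes the arrays of the drugs did not overlap. Other probe sets of Ankrd17 did not pass and went both ways (0.43, 0.06 and -0.17), while of 4 others of Prr12 1 passed (0.57) and 3 did not (0.25, 0.10 and 0.05).

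Cytoskeletal genes complete the 12. Map1a, a microtubule-associated protein of dendrites, ran from 10.17 through 10.52 to 10.58 with phenytoin and from 9.65 through 9.87 to 9.97 with levetiracetam (0.57 ± 0.08, limma adjusted p = 9.96e-05). Gas7, an actin-binding protein of growing neurites, was higher by 0.56 ± 0.07 and Kifc2, a kinesin of dendrites and axons, by 0.75 ± 0.10. Of the 12 genes only Kifc2 had overlapping arrays, with its lowest phenytoin value at 9.26 and its highest levetiracetam value at 9.32.

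The genes with the smallest p that were lower with phenytoin include several signalling and transcription regulators. Fnip1, a folliculin partner that links AMPK and mTOR signalling, ran from 8.80 through 8.96 to 9.01 with phenytoin and from 9.37 through 9.51 to 9.77 with levetiracetam (-0.63 ± 0.07, or 1.55-fold lower, limma adjusted p = 2.46e-05). Dusp6, the phosphatase that switches off ERK, ran from 8.02 through 8.49 to 8.59 against 8.85 through 9.09 to 9.29 (-0.74 ± 0.09, adjusted p = 4.5e-05). Id2, an inhibitor of basic helix-loop-helix transcription factors, ran from 11.25 through 11.32 to 11.39 against 11.74 through 11.88 to 12.03 (-0.56 ± 0.07). In these 3 genes all phenytoin arrays were below all levetiracetam arrays, and the control means (9.37, 8.72 and 11.71) lay between the drug means.

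Protein traffic and chromatin genes make up much of the rest. Eps15, an endocytic adaptor, was measured on 6 phenytoin arrays and was lower by 0.64 on the log2 scale (SE 0.08), Kpna1, a nuclear import receptor, by 0.72 (SE 0.09), and Trappc13, a subunit of a vesicle tethering complex, by 0.48 (SE 0.07). The difference was -0.72 ± 0.09 for Arid1b, a subunit of the BAF chromatin remodeller, and -0.66 ± 0.09 for Zeb2, a zinc finger repressor. Zfp91 (-0.60 ± 0.07), Inka2 (-0.49 ± 0.06) and Tsc22d2 (-0.73 ± 0.10) complete this group with Slc1a3. All 12 had separate arrays.

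Several of these 12 lower genes depend on the probe set. Other probe sets did not pass for Fnip1 (-0.07, limma adjusted p = 0.871), Dusp6 (-0.28 and -0.19), Id2 (-0.23), Kpna1 (-0.12 and -0.22), Arid1b (-0.23 and -0.09) or Trappc13 (-0.06 on a brighter one and -0.08). For Eps15 1 other passed (-0.58) and 1 did not (-0.10, the brightest). Slc1a3, the glutamate transporter of astrocytes, had a brighter probe set of opposite sign. The one among the 12 was at 7.04 ± 0.21 with phenytoin and 7.78 ± 0.11 with levetiracetam (SD, n = 7 each), a difference of -0.74 ± 0.10. Its brightest probe set, at 11.5 and 11.4, differed by 0.15 ± 0.07 in the opposite direction and did not pass (limma adjusted p = 0.143).

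**Figure D2:**
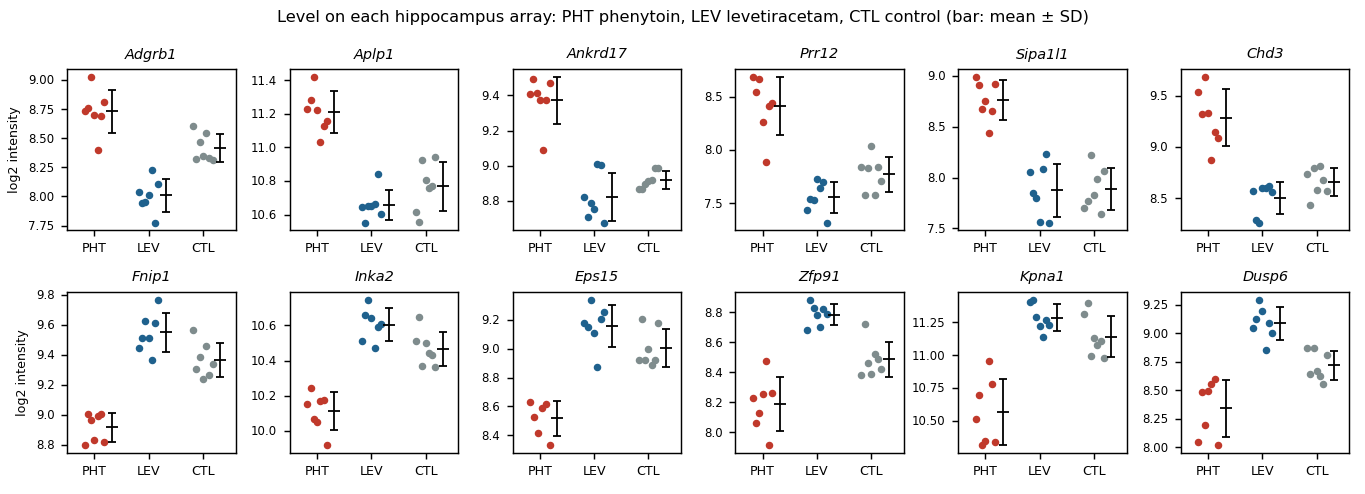
Normalized log2 intensity on each hippocampus array for the 6 genes with the smallest p that were higher (top) and lower (bottom) with phenytoin, in phenytoin (red), levetiracetam (blue) and control (grey) rats, with mean ± SD beside the points. In all 12 panels the red and blue points do not overlap, as for Adgrb1 (8.40 to 9.03 against 7.78 to 8.23).

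Among probe sets with 1 gene symbol and a higher group mean above 7, several of the largest differences were those with widely spread phenytoin arrays. Rad23b, a shuttle that brings ubiquitinated proteins to the proteasome, ran from 5.11 through 5.81 to 7.46 with phenytoin and from 7.27 through 7.69 to 7.84 with levetiracetam (-1.50 ± 0.31, 2.83-fold lower, limma adjusted p = 0.00212). A brighter Rad23b probe set, at 10.3 and 10.6, was lower by only 0.33 on the log2 scale (SE 0.07, adjusted p = 0.00262). Prss35, a secreted serine protease-like protein, differed by -1.33 ± 0.37, Eml2, a microtubule-associated protein, by -1.25 ± 0.40, and Pafah1b1, the dynein regulator Lis1, by -1.21 ± 0.28. A second Pafah1b1 probe set differed by -0.26 ± 0.10 and did not pass (adjusted p = 0.0789). Low values were not limited to phenytoin: control arrays 3 and 5 were at 6.38 and 5.89 for Rad23b, with the other control arrays at 7.40 to 7.63. These 2 arrays were also low for Eml2 (5.81 and 6.10) and Pafah1b1 (7.97 and 6.95). Phenytoin arrays 5 and 6 were at 7.46 and 7.12 for Rad23b, and the cause of this spread was not tested. Upward, Ttll7, a tubulin polyglutamylase, led with 1.06 ± 0.21, with arrays from 8.83 to 10.25 against 8.60 to 8.91. Both brighter Ttll7 probe sets did not pass and went both ways (0.16, adjusted p = 0.082, and -0.12, adjusted p = 0.309). Scaf1, a splicing-associated factor, followed with 0.90 ± 0.14 and Arhgap33 with 0.89 ± 0.13.

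Neither measured gene of the SV2 family, to which the target of levetiracetam belongs, passed. Sv2a ran from 8.80 through 9.02 to 9.15 with phenytoin and from 8.69 through 8.82 to 9.05 with levetiracetam, overlapping ranges whose difference of 0.16 ± 0.08 did not pass (limma adjusted p = 0.156). It passed without phenytoin array 7 and control array 1 together (0.19 ± 0.06, adjusted p = 0.0188), an alternative chosen after the arrays had been seen, and with array weights (0.18, adjusted p = 0.0307), and missed at 0.0771 without phenytoin array 7 alone. Sv2b ran from 10.91 to 11.99 against 11.48 to 12.01 and differed by -0.10 ± 0.14 (adjusted p = 0.684), and its other probe set differed by -0.40 ± 0.20 (adjusted p = 0.17).

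Among 12 measured sodium channel genes 2 were higher, 1 was lower and 9 did not pass. Scn3a, a channel of the developing brain, ran from 7.77 through 7.95 to 8.20 with phenytoin and from 7.46 through 7.69 to 7.75 with levetiracetam, with no overlap (0.34 ± 0.10, limma adjusted p = 0.0204). Scn1a, the channel of fast-spiking interneurons, ran from 8.41 through 8.58 to 9.56 against 8.04 through 8.29 to 8.46. Its difference was 0.43 ± 0.14 (adjusted p = 0.0371), the highest value was on phenytoin array 7, and without that array it was 0.29 ± 0.10 (adjusted p = 0.0491). Fgf14, a cytosolic partner of these channels at the axon initial segment, was lower on both of its probe sets, by 0.37 (SE 0.10) and by 0.69 (SE 0.19) on the log2 scale. Scn2b, a beta subunit, differed by 0.08 ± 0.08 on its brightest probe set, measured on 6 phenytoin arrays, which did not pass (adjusted p = 0.545), and was lower on a dimmer one, at 6.22 against 6.87 (-0.66 ± 0.14, adjusted p = 0.00341).

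Scn2a and Scn8a, the main channels of excitatory neurons, had differences of 0.02 ± 0.08 and -0.06 ± 0.12 (limma adjusted p = 0.92 and 0.801). The Scn8a probe set was dim, at 5.17 to 6.02 with phenytoin and 5.635 to 6.06 with levetiracetam. The values of Scn3b (-0.25 ± 0.21) and Scn4b (0.42 ± 0.36) turned on phenytoin array 7, where Scn4b was 11.04 against at most 7.78 on the others, and both changed sign without it. Without that array 2 of the 12 were higher and 2 lower, and in the fit with the Gapdh ratio 0 passed.

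Other ion channels moved in both directions. Of 15 calcium channel genes 2 were higher and 2 lower: Cacna2d1, the gabapentin-binding subunit (0.35 ± 0.11), and Cacnb3 (0.25 ± 0.09, not passed without phenytoin array 7) against Cacna2d3 (-0.24 ± 0.06) and Cacng8, an AMPA receptor auxiliary subunit (-0.88 ± 0.26, and -0.67 without that array). Of 25 potassium and HCN channel genes 3 were higher and 3 lower. Kcna1, a Kv1 channel of axons, ran from 8.37 through 8.72 to 9.01 with phenytoin and from 8.29 through 8.35 to 8.41 with levetiracetam (0.36 ± 0.08), ranges that meet at a single phenytoin array. Kcnc1, a Kv3 channel of fast-spiking cells, was higher by 0.34 ± 0.08 and Kcna6 by 0.52 ± 0.13 (0.36 without phenytoin array 7), while Kcna4 (-0.45 ± 0.14), Kcnc2 (-0.22 ± 0.07) and the beta subunit Kcnab1 (-0.34 ± 0.10) were lower. Kcna4 did not pass without phenytoin array 7. In the Gapdh-adjusted fit 2 of the calcium channel genes and 0 of the potassium and HCN channel genes passed.

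Inhibitory synapse genes showed a mixed pattern. Of 9 measured GABA-A receptor subunits 2 were higher and 1 was lower with phenytoin. Gabrg1 ran from 6.79 through 7.07 to 7.25 with phenytoin and from 7.28 through 7.53 to 7.73 with levetiracetam, fully below it (-0.48 ± 0.11, limma adjusted p = 0.00429). Gabrb1 was higher by 0.26 ± 0.08. Gabrd, the extrasynaptic delta subunit, was higher by 0.42 ± 0.14 and by 0.25 ± 0.08 without phenytoin array 7, its highest value. Of 7 genes of GABA synthesis, transport and GABA-B receptors only Gad1, a GABA-synthesising enzyme, passed (0.20 ± 0.06). The median over the GABA-A subunits was -0.24, against 0.02 over all genes. Of the GABA-A subunits 2 were higher and 2 lower without phenytoin array 7, and with the Gapdh ratio 0 were higher and 1 lower, while 0 of the 7 other GABA genes passed.

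Glutamate receptor genes passed in both directions. The shares that passed were 40% of NMDA, 12.5% of AMPA and kainate and 11.1% of metabotropic genes, beside 9.45% higher and 7.89% lower over all genes. Of 5 NMDA receptor subunits 2 were higher: Grin1, the obligate subunit, ran from 8.99 through 9.50 to 10.001 with phenytoin and from 8.76 through 8.90 to 9.12 with levetiracetam (0.56 ± 0.11, limma adjusted p = 0.00168), and Grin2c was higher by 0.31 ± 0.10 but did not pass without phenytoin array 7 (adjusted p = 0.0588). Grin2a and Grin2b differed by 0.09 and -0.07 and did not pass. Gria3 (-0.25 ± 0.07) was the 1 of 8 AMPA and kainate subunits that passed (1 higher and 2 lower without phenytoin array 7), and Grm4 (0.58 ± 0.19) the 1 of 9 metabotropic receptors, the latter not without phenytoin array 7. Grm4 was dim, at 5.55 to 6.51 with phenytoin and 4.53 to 6.04 with levetiracetam. Of 10 glutamate transporter and glutamine cycle genes the glutamine carriers Slc38a1 (0.22 ± 0.06) and Slc38a3 (0.43 ± 0.15) were higher, with Slc38a3 lost without that array (adjusted p = 0.0792) and 3 higher there. With the Gapdh ratio 1 NMDA subunit was higher, and 0 AMPA and kainate, metabotropic or transporter genes passed.

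By the brightest probe set of each gene, some postsynaptic and kinase genes were higher with phenytoin. Of 21 scaffold and spine genes 4 were higher and 0 lower, namely Sipa1l1, Shank3 (0.50 ± 0.11), Dlgap4 (0.34 ± 0.08) and Dlgap3 (0.50 ± 0.14), the last 3 being scaffold proteins of the postsynaptic density. Dlgap3 ran from 7.96 through 8.21 to 9.17 with phenytoin and from 7.78 through 7.87 to 7.90 with levetiracetam, and without phenytoin array 7 its difference was 0.37 ± 0.10. Without that array 4 scaffold genes were higher and 1 lower. Of 14 calcium/calmodulin-dependent kinase genes 4 were higher and 0 lower. Camk2g was higher by 0.37 ± 0.08 with separate arrays, the pseudokinase Camkv by 0.33 ± 0.08, Camk1 by 0.29 ± 0.09 and Camk2d by 0.53 ± 0.18, which did not pass without phenytoin array 7. With values as deposited 4 kinases were higher and 2 lower. The Gapdh-adjusted fit gave 1 higher scaffold gene and 3 higher kinases, with 0 lower. A dimmer probe set of Camk2a was lower, as given with the opposed probe sets.

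Of 33 synaptic vesicle genes 7 were higher and 2 lower. Cplx1, a complexin that clamps and triggers fusion, ran from 11.06 through 11.32 to 11.60 with phenytoin and from 10.66 through 10.83 to 10.98 with levetiracetam, with no overlap (0.50 ± 0.07, limma adjusted p = 0.000202). Synj1, the phosphatase that uncoats vesicles, was higher by 0.57 ± 0.12, Stx1a, a fusion SNARE, by 0.54 ± 0.12, and Dnm1, the dynamin of membrane fission, by 0.35 ± 0.09. Syp, synaptophysin, was higher by 0.45 ± 0.12 and by 0.59 ± 0.08 without phenytoin array 7, its lowest value. Syt4, a vesicle protein of the synaptotagmin family, was lower (-0.36 ± 0.09). The Gapdh-adjusted fit gave 4 higher and 0 lower genes, and without phenytoin array 7 the counts were 11 higher and 3 lower.

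Of 31 neurofilament and microtubule genes 9 were higher and 4 lower with phenytoin, and the counts were 10 and 6 without phenytoin array 7. Nefh, the heavy neurofilament chain, ran from 9.92 through 10.27 to 10.47 with phenytoin and from 9.53 through 9.66 to 9.87 with levetiracetam (0.53 ± 0.10, limma adjusted p = 0.00114). Mapt, the tau protein, ran from 12.13 through 12.53 to 12.63 against 11.94 through 12.07 to 12.12 (0.37 ± 0.07). Neither gene had overlapping arrays.

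The motor proteins Kif5a, a kinesin (0.69 ± 0.14), and Dync1h1, the dynein heavy chain (0.43 ± 0.08), were higher too, as was Tubb4a (0.50 ± 0.10). For Kif5a phenytoin array 7 was the highest at 11.72, and without it the difference was 0.53 ± 0.08. Among the lower members were Pafah1b1 and the light neurofilament chain Nefl, at -0.23, the reverse of Nefh. In the fit with the Gapdh ratio 8 were higher and 0 lower.

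Some neurotrophin receptors were higher, while 2 genes of the neurotrophin list were below 0, down to -0.61. Of 5 measured genes 3 passed: Ntrk3, the receptor of neurotrophin-3, ran from 6.16 through 6.65 to 7.06 with phenytoin and from 5.70 through 6.14 to 6.39 with levetiracetam (0.49 ± 0.13), Ntrk2, the receptor of Bdnf, was higher by 0.38 ± 0.10 (0.28 without phenytoin array 7), and the sorting receptor Sort1 by 0.23 ± 0.07. The ranges of the arrays overlapped for each, and 0 of the 5 passed with the Gapdh ratio in the fit. Other probe sets of Ntrk2 passed (0.78 and 0.68) or did not (0.10 and 0.11), and the other one of Sort1 did not pass (-0.09). Of 16 immediate early genes only Jund passed, with every phenytoin array (10.12 to 11.02) below every levetiracetam array (11.08 to 11.45, -0.45 ± 0.12). Of 16 neuropeptide genes 0 passed, the smallest p being those of Tac3 (-0.41 ± 0.15, limma adjusted p = 0.0643) and Chga (-0.22 ± 0.08, adjusted p = 0.0685), and 1 was higher without phenytoin array 7. Adjusted for the Gapdh ratio, 0 immediate early and 0 neuropeptide genes passed.

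Of 18 genes of the circadian clock 7 were higher and 1 was lower with phenytoin, and 16 were above 0. The clock is a loop in which Clock and Bmal1 bind E-boxes and activate Per, Cry and Nr1d genes, whose products repress it in turn, while Dbp and Tef are output factors. Nr1d1, a heme-binding repressor of Bmal1, ran from 7.37 through 7.54 to 8.31 with phenytoin and from 6.78 through 6.99 to 7.44 with levetiracetam (0.66 ± 0.12, limma adjusted p = 0.00119). A single levetiracetam array reached into the phenytoin range.

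The output factor Dbp ran from 7.90 through 8.27 to 8.93 with phenytoin and from 7.56 through 7.77 to 7.89 with levetiracetam, without overlap (0.55 ± 0.11, limma adjusted p = 0.00239). Per1 ran from 6.64 through 6.86 to 7.25 against 5.80 through 6.24 to 6.81 (0.59 ± 0.14), with phenytoin array 7 at the top. Per3 was higher by 0.37 ± 0.11, Cry2 by 0.23 ± 0.07 and Bhlhe41, an E-box repressor, by 0.23 ± 0.08, the last not without phenytoin array 7 (adjusted p = 0.0751). Nr1d2 was higher by 0.25 and Tef lower by 0.28 on the log2 scale.

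The activators were nearly level. Bmal1 differed by 0.03, Clock by 0.04 and Npas2 by 0.04, and none of the 3 passed. For Nr1d1, Dbp, Per1, Per3, Cry2 and Bhlhe41 the control mean lay between the drug means, at 7.32, 8.17, 6.65, 6.32, 8.69 and 9.44. In the fit with the Gapdh ratio Nr1d1 alone passed (0.48, adjusted p = 0.0312), followed by Dbp (0.35, 0.0555) and Per1 (0.52, 0.0631). Without phenytoin array 7 the counts were 6 higher and 0 lower. The labels give no time of day of tissue collection, which was not tested.

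**Figure D3:**
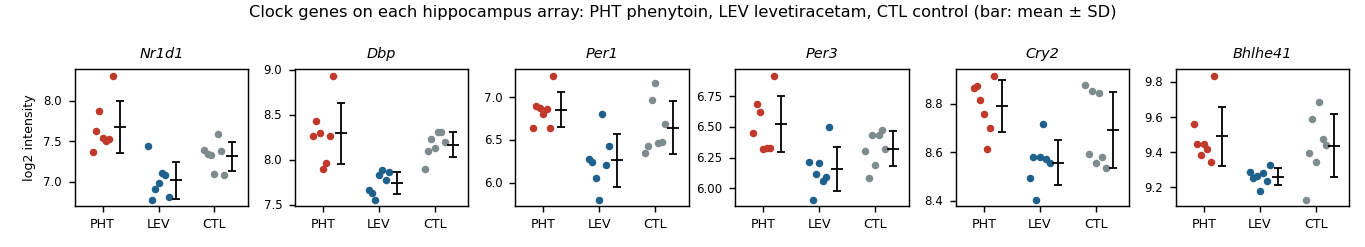
Normalized log2 intensity of 6 clock genes on each hippocampus array of phenytoin (red), levetiracetam (blue) and control (grey) rats, with mean ± SD beside the points. Dbp and Bhlhe41 have no overlap between phenytoin and levetiracetam, and the control means, such as 7.32 for Nr1d1, lie between those of the drugs.

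Because 7 clock genes were higher, the 250 bases upstream of their starts in RefSeq (build GRCr8) were searched for the E-box CACGTG, which reads the same on both strands. An entry was found for 16 of the 18 genes. The E-box was present upstream of 2 of the 7 higher genes and of 2 of the other 9, against 5.59% of all 33469 upstream windows of that length. The D-box TTATGTAA, read on both strands, was upstream of 0 of the 7, of 1 of the other 9 and of 0.828% of all windows. Shown are the stretches around the E-box of the higher genes, followed by that of Tef, which was lower, and Bhlhe40, which did not pass, 5' to 3' on the gene's strand with the E-box in capitals. Nr1d1 has 2 entries in the table, and its E-box belongs to 1 of them.
Nr1d1 (chr10:84229610-84229675, minus strand): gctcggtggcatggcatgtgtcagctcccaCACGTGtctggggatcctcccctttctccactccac
Bhlhe41 (chr4:180569368-180569433, minus strand): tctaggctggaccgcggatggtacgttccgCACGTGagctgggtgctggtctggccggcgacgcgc
Tef (chr7:115206599-115206664, plus strand): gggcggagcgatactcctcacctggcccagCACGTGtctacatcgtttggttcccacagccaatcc
Bhlhe40 (chr4:143174200-143174265, plus strand): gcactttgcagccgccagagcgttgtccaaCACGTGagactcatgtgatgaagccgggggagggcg
The E-box starts 191 bases before the start of Nr1d1, 48 before that of Bhlhe41, 198 before that of Tef and 220 before that of Bhlhe40. It lies upstream of genes that were higher, lower and not passed, and no match says only that these letters are not in this window.

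Among protein quality control genes more passed as lower than as higher with phenytoin. Of 32 chaperone, heat shock and unfolded protein genes 10 were lower and 1 was higher. Dnajb9, a co-chaperone of the endoplasmic reticulum, ran from 8.21 through 8.54 to 9.02 with phenytoin and from 8.92 through 9.12 to 9.25 with levetiracetam (-0.55 ± 0.10, limma adjusted p = 0.000745). Lower as well were the chaperone Hspa2 (-0.43 ± 0.09), Edem1, which clears misfolded glycoproteins (-0.36 ± 0.09), the disulfide isomerase Pdia6 (-0.23 ± 0.06) and the Hsp70 cofactor St13 (-0.27 ± 0.07). Hsf1, the heat shock transcription factor, was the 1 higher gene (0.37 ± 0.08). The median was -0.06, and 13 of the 32 were above 0. Without phenytoin array 7 there were 10 lower and 3 higher, and the Gapdh-adjusted fit gave 3 lower and 1 higher.

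Of 35 proteasome subunits 4 were lower (11.4%, near the 7.89% lower over all genes) and 0 higher. Psmc6, an ATPase of the regulatory particle, ran from 8.76 through 8.98 to 9.29 with phenytoin and from 9.39 through 9.51 to 9.67 with levetiracetam (-0.52 ± 0.09, limma adjusted p = 0.000445), and the core subunits Psma1 (-0.36 ± 0.07), Psma2 (-0.27 ± 0.07) and Psma4 (-0.27 ± 0.07) were lower too. Of the 35 genes 27 were below 0, with a list median of -0.04. The Gapdh-adjusted fit gave 2 lower and 0 higher.

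Small GTPases of membrane traffic were lower in 11 of 38 cases and higher in 1. Rab5a, the GTPase of early endosomes, ran from 9.29 through 9.39 to 9.68 with phenytoin and from 9.70 through 9.77 to 9.84 with levetiracetam (-0.32 ± 0.06, limma adjusted p = 0.00148). Rab35 (-0.37 ± 0.08) and Rab14 (-0.30 ± 0.07), of endosomal recycling, also had separate arrays, while Rab40b (-0.44 ± 0.09) and Rab21 (-0.30 ± 0.07) overlapped. Rab6b, a neuronal Golgi GTPase, was higher (0.27 ± 0.06). Rhoa, the GTPase of actin contractility, was lower on both probe sets, by 0.83 and 1.03 on the log2 scale. With the Gapdh ratio 4 were lower and 1 higher.

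RNA processing and metabolic genes passed in both directions. Of 35 splicing factor genes 7 were lower and 3 higher, with Ptbp2, the neuronal polypyrimidine tract binding protein (-0.76 ± 0.13), Hnrnpa3 (-0.50 ± 0.10), Tra2b (-0.29 ± 0.06) and Hnrnpa2b1 (-0.33 ± 0.08) against Hnrnpl (0.36 ± 0.06) and Srrm2 (0.42 ± 0.10), and the Gapdh-adjusted fit gave 3 lower and 2 higher. Of 25 glycolysis genes 7 were higher and 1 was lower, but with values as deposited 3 were higher and 4 lower. The phosphofructokinase subunits Pfkm (0.31 ± 0.06) and Pfkp (0.28 ± 0.06) and Eno1, an enolase (0.24 ± 0.06), had separate arrays, and Hk1, the brain hexokinase, was higher by 0.42 ± 0.09. Pdhb, of pyruvate dehydrogenase, was the lower one (-0.26 ± 0.08).

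Of 69 oxidative phosphorylation genes 6 were lower and 3 higher, near the background shares, led by Ndufb8 of complex I (-0.50 ± 0.09) and Sdhd of complex II (-0.29 ± 0.07). Without phenytoin array 7 these counts were 10 and 3, and with values as deposited 8 and 0. Of 39 cytosolic ribosomal protein genes 2 were lower (Rpl21, -0.38 ± 0.09, and Rpl27, -0.27 ± 0.09) and 8 were lower without that array. In the Gapdh-adjusted fit 2 glycolysis genes, 2 oxidative phosphorylation genes and 1 ribosomal protein gene passed.

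**Figure D4:**
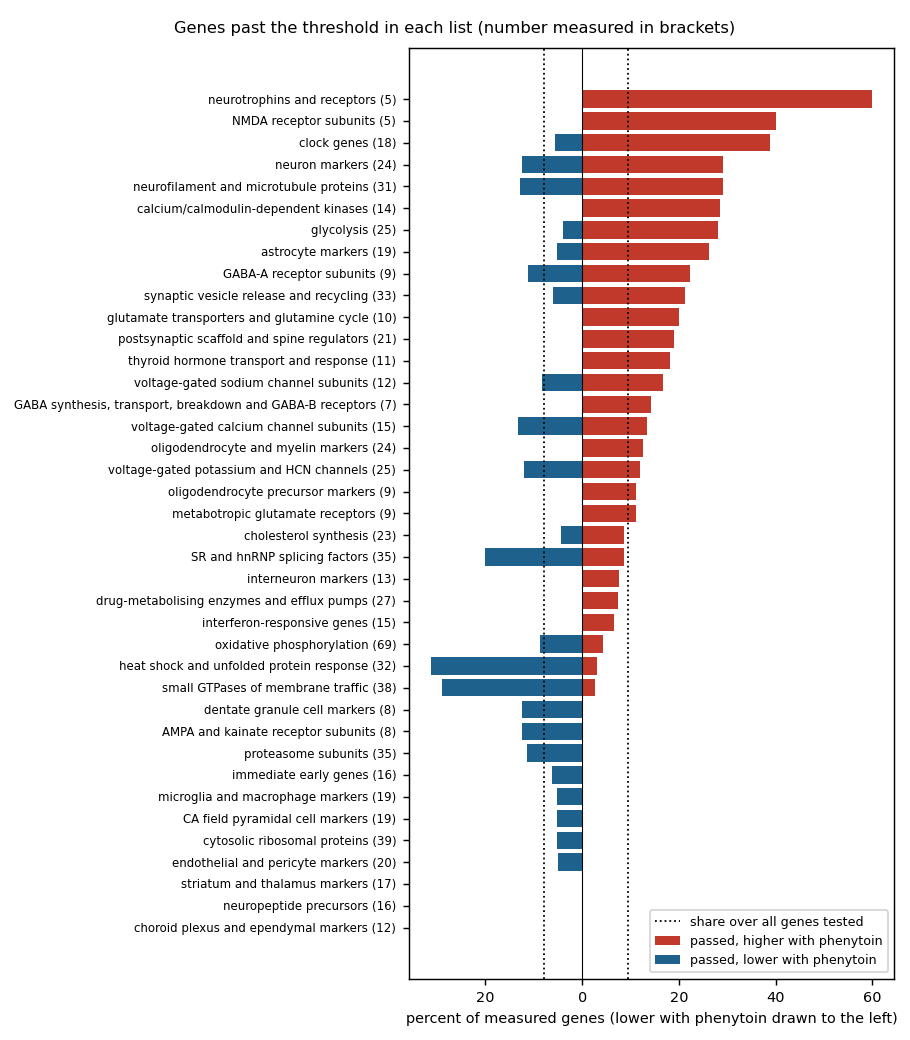
Percent of the measured genes of each list (number in brackets, lists of 5 genes or more) that passed and were higher (red, to the right) or lower (blue, to the left) with phenytoin. Dotted lines mark the shares over all 10265 genes, 9.45% higher and 7.89% lower, and lists of few genes reach high shares with few passes, such as the neurotrophin list with 3 of 5.

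Markers of cell types were read beside these groups. Of 24 neuron markers 7 were higher and 3 lower, Rbfox3 (NeuN, 0.50 ± 0.12) and Gap43 (0.33 ± 0.08) among the higher and Elavl2 (-0.40 ± 0.10, and -0.30 without phenytoin array 7) among the lower. After Gapdh adjustment 3 were higher and 0 lower, and with values as deposited 7 were higher and 7 lower. The mean level over the neuron list ran from 10.41 to 10.84 on phenytoin arrays and from 10.60 to 10.71 on levetiracetam arrays. Of 8 dentate granule cell markers only Prox1 passed, with every phenytoin array (7.39 to 9.14) below every levetiracetam array (9.27 to 9.34), by 0.55 on the log2 scale and by 0.32 without phenytoin array 7. Of 19 CA field markers only Zbtb20 passed, lower by 0.58 and by 0.46 without that array, and 3 were higher and 2 lower there. Of 13 interneuron markers Gad1 alone passed. With the Gapdh ratio 1 CA marker was lower, and 0 dentate and 0 interneuron markers passed.

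Some glial markers were higher with phenytoin. Of 19 astrocyte markers 5 were higher, among them Aldh1l1 (0.50 ± 0.11), Atp1b2 (0.40 ± 0.10) and Aldoc (0.30 ± 0.09, and 0.21 without phenytoin array 7), and Gja1, the astrocyte gap junction protein, was lower (-0.17 ± 0.05). The mean level over the astrocyte list was 11.03 on phenytoin array 7, 10.44 to 10.55 on the other 6 and 10.27 to 10.52 with levetiracetam. Of 24 oligodendrocyte markers 3 passed and were higher (12.5%, near the 9.45% higher over all genes): Cnp (0.56 ± 0.11), the myelin regulator Sox10 (0.82 ± 0.18), and Myrf (0.60 ± 0.15). The other 21 did not pass, Mbp (0.09) and Mog (0.18) among them, although 23 of the 24 were above 0. Without phenytoin array 7 Sox10 was higher by 0.67 ± 0.15 and Cnp by 0.47 ± 0.10, with 3 of the list higher and 1 lower. In the Gapdh-adjusted fit 1 astrocyte and 1 oligodendrocyte marker were higher and 0 lower. The mean level over the oligodendrocyte list was 9.18 to 9.60 on the other 6 phenytoin arrays and 9.17 to 9.43 on the levetiracetam arrays. Of 9 oligodendrocyte precursor markers only Sox10, which is also on the former list, passed. The part of dissection and cell mix in the gene groups above was not tested.

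Of 19 microglia markers only Gpr34 passed (-0.42 ± 0.14), of 20 endothelial and pericyte markers only Acta2 (-0.45 ± 0.11), and of the 12 choroid plexus and 17 striatum and thalamus markers 0 passed in limma. Without phenytoin array 7 the lower counts were 2 microglia and 2 endothelial and pericyte markers, and 1 striatum and thalamus marker was higher. With the smallest p of the last list, Zic4 differed by -0.31 (adjusted p = 0.0547) and Slc17a6 by 0.54 (adjusted p = 0.0606). The median of the striatum and thalamus list was 0.29, and phenytoin array 7 lay above all other phenytoin arrays on it. With the Gapdh ratio 2 microglia markers were lower, and 0 precursor, endothelial, choroid plexus or striatum and thalamus markers passed.

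Lists linked to known effects of phenytoin on the body were read next, beside 9.45% higher and 7.89% lower over all genes. Of 27 drug-metabolising enzymes and efflux pumps 2 were higher, Cyp46a1, the brain cholesterol 24-hydroxylase (0.46 ± 0.12), and the efflux pump Abcc1 (0.45 ± 0.14), and without phenytoin array 7 there were 2 higher and 3 lower. Of 11 thyroid hormone genes 2 were higher, the receptor Thrb, with separate arrays at 8.80 to 9.01 against 8.44 to 8.72 (0.29 ± 0.07), and the hormone-responsive Nrgn (0.19 ± 0.07), and 4 were higher without that array. Of 23 cholesterol genes 2 were higher and 1 lower: Scap, the sterol sensor, ran from 8.95 through 9.23 to 9.36 with phenytoin and from 8.65 through 8.78 to 8.86 with levetiracetam (0.44 ± 0.07, limma adjusted p = 0.000469), Srebf1 was higher by 0.43 ± 0.12 and Acat2 lower (-0.34 ± 0.08). Of 15 interferon-responsive genes Irf7 alone passed (0.43 ± 0.14), with 1 higher and 1 lower without phenytoin array 7. After Gapdh adjustment 1 drug-metabolising and 1 thyroid gene were higher, 2 cholesterol genes higher and 1 lower, and 0 interferon-responsive genes passed.

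The same contrast was then set beside the other regions, whose arrays are separate. In brainstem the difference between the drugs had the same sign for 86.6% of the 1492 higher and 88.5% of the 1631 lower probe sets, against 48.8% of all probe sets positive there. Over all tested probe sets the differences in hippocampus and brainstem correlated with r = 0.49, a description across probe sets that share platform and scaling. A test of hippocampus minus brainstem found 13 probe sets to differ (0.0698%), all among the 3123. Rad23b had the smallest p, with a brainstem difference of 0.07 and an interaction of -1.57, followed by Rhoa (-1.10), Pafah1b1 (-1.62), Hspa4, an Hsp110-type chaperone (-1.40), and the ETS factor Elk1 (-1.14). The Elk1 probe set was dim in hippocampus, at 4.91 to 6.28 with phenytoin and 6.07 to 6.68 with levetiracetam. Control hippocampus arrays 3 and 5 were low as well, at 5.20 and 5.13 for Elk1, 7.26 and 6.86 for Hspa4 and 6.38 and 5.89 for Rad23b. A brighter Elk1 probe set differed there by only 0.04 and did not pass (limma adjusted p = 0.745). Cnp was the higher one of these 6 (0.72, limma adjusted p = 0.0448 as for the other 5) and did not pass without phenytoin array 7 (adjusted p = 0.0587). The count of 13 fell to 0 with values as deposited, with no filter, with 1 probe set per gene or with either quality covariate. It fell to 1 without levetiracetam brainstem arrays 1 and 2, whose labels name both drugs.

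The contrast with frontal cortex passed for more probe sets. Of the 1492 higher probe sets 39.5% and of the 1631 lower ones 37.9% kept their sign in cortex. Of all probe sets 46.1% were positive there, the background for the higher ones, and the larger rest is that for the lower ones. Over all probe sets r was -0.20. The interaction passed for 3728 probe sets (20%), 1706 of them among the 3123, which is 54.6% of the hippocampus calls and 45.8% of the interaction calls. The 6 with the smallest p were lower with phenytoin in hippocampus and higher in cortex, so that the contrast of regions was negative. For the ubiquitin-conjugating enzyme Ube2d2 it was -2.48 ± 0.18 (SE), for the lipid carrier Serinc1 -1.94 ± 0.14, for the translation inhibitor Pdcd4 -2.37 ± 0.18, for Klhl2 -2.78 ± 0.21, for the bicarbonate transporter Slc4a10 -2.19 ± 0.17 and for Arid1b -2.34 ± 0.18. In hippocampus alone these genes were lower by 0.40, 0.36, 0.47, 0.37, 0.45 and 0.72 on the log2 scale. The cortex arrays carry titles in another style, and a processing difference between regions was not tested.

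**Figure D5:**
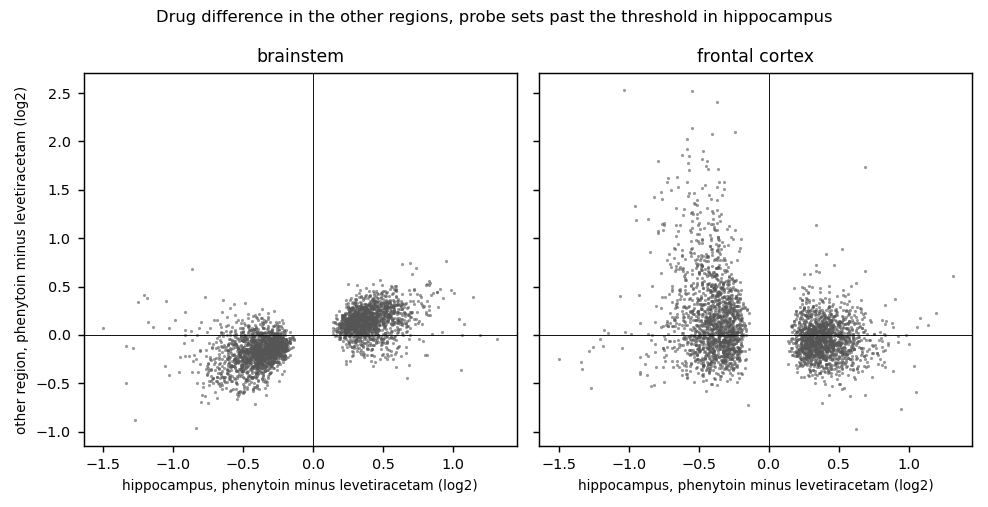
Difference between phenytoin and levetiracetam (log2) in brainstem (left) and frontal cortex (right) against that in hippocampus, 1 point for each of the 3123 probe sets that passed in hippocampus. In brainstem most points lie in the quadrants of equal sign (86.6% and 88.5%), in cortex fewer do (39.5% and 37.9%), with a group of probe sets lower in hippocampus and higher in cortex.

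Several genes had probe sets that passed in opposite directions. This was so for 33 of the 2821 genes with several tested probe sets. Zfp91 was lower on 1 probe set (-0.60) and higher on 3 (0.31, 0.29 and 0.20), and Zeb2 was lower on 2 (-0.66 and -0.39) and higher on 1 (0.42). Camk2a, the alpha subunit of the main postsynaptic kinase, was higher on the brighter probe set (0.59 ± 0.13, at a level of 8.46 with phenytoin) and lower on the dimmer one (-0.48 ± 0.15, at 6.04). Mapre3, a microtubule plus-end protein, was lower on its bright probe set (-0.32 ± 0.06, at 11.1) and higher on a dimmer one (0.64 ± 0.09, at 8.52). Camk2a and Mapre3 were singled out after their values were seen. Which part of a transcript each probe set reads was not used here, so that isoform, transcript end and RNA quality cannot be told apart for these genes. Among genes named from the lists some dimmer probe sets differed from the brightest. Those of Cplx1 (-0.09), Gad1 (-0.35), Pfkm (-0.15), Cnp (-0.03), Slc38a1 (-0.11), Scap (-0.10) and Camk2d (-0.13) had the opposite sign and did not pass. Others of Hnrnpa2b1 (0.05, 0.02 and 0.002) and Stx1a (0.09) did not pass either. Dimmer ones of Mapt (0.38 and 0.27) and Grin1 (0.60) passed in the same direction.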

How the data were processed

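Rat expression arrays of 1 colour were used as 1 linear intensity per probe set and array, deposited and scaled by the authors; per the values, the mean with 2 percent trimmed from each end was 150.04 to 150.06 on the other arrays and 171.9 on phenytoin array 4. The summarization software is not given in the sources used here. Values below 0 were set to 0, transformed as log2(value + 16) and quantile-normalized over 62 arrays. Of 31042 probe sets, not counting 57 controls, the 40 percent with the lowest mean were dropped, leaving 18625. Limma 3.58.1 (R 4.3.3; lmFit, eBayes with trend) was fitted to 21 hippocampus arrays; differences between regions came from a fit of 9 groups. Symbols came from the platform annotation (20826 probe sets with 1 symbol, 436 with several, 9780 with none). List members use the brightest probe set of a gene. The fit was tested on simulated data with independent noise, in which 50 probe sets were changed at each size. It recovered 8% of true log2 changes of 0.25, 70% of those of 0.5 and 100% of those of 1 and 2. Of its 149 calls 10 were false. Small differences can therefore be missed.

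The named genes are the 12 smallest p and the 4 largest differences each way, the 6 smallest p of each interaction, up to 6 passing members of each of 40 lists (otherwise 2), Sv2 genes and sodium channels. Members and lists were chosen with earlier results of these data known. The number of arrays limits the precision. Same-numbered rats of the drugs did not deviate together (correlations -0.06 to 0.03), so no pairing was used.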

Additional observations from a re-analysis of the deposited data

Results flagged for a closer look

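In 41 of 492 groups of 7 hippocampus arrays (164 probe sets, 3 treatments) 1 array lay far from the rest by Dixon's test, where chance gives about 1 in 20. Values are normalized log2 intensities, each followed by that of the nearest array of its group. Phenytoin array 7 held 15 of them. It was the highest for Bcr (10.2, next 9.86), Scn1a (9.56, 8.78), Scn4b (11.04, 7.78), Kcna6 (9.16, 8.32), Gabrd (8.88, 7.88), Ntrk2 (11.12, 10.5), Per1 (7.25, 6.90), Aldh1l1 (8.42, 7.93), Fgfr3 (9.65, 9.06) and Kif5a (11.72, 10.77). It was the lowest for Scn3b (9.57, 11.51), Scn2a (8.995, 9.41), Syp (9.88, 10.6), Prox1 (7.39, 8.81) and Elavl2 (8.81, 9.40).

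Control array 1 held 6: Prss35 (5.73, 7.53), Sv2a (8.31, 8.75) and Kcnc1 (8.21, 8.41) were lowest there, and Camk2g (9.72, 9.42), Jund (11.78, 11.31) and Hnrnpa2b1 (11.07, 10.75) highest. Its spike-in mean of 11.8 (next 11.2) and its median deposited intensity of 61.8 (next 53.5) also stood apart. The median deposited intensity of phenytoin array 4, 64.1 (next 52.8), did so as well, on an array that lacks mostly dim probe sets.

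On other control arrays the extreme values were Zfp91 (8.72, next 8.52), Zeb2 (9.60, 9.42) and Scap (8.62, 8.84) on array 2, Acat2 (7.66, 7.90) on array 3, Scn4b (7.20, 7.62) on array 4, and Slc1a3 (7.25, 7.59), Grin1 (9.18, 8.99) and Ina (10.2, 9.93) on array 7. On other phenytoin arrays they were Tac3 (6.56, 6.03) on array 2, Jund (10.12, 10.69) and Srebf1 (8.96, 8.48) on array 3 and Ankrd17 (9.09, 9.37) on array 5. On levetiracetam arrays they were Ube2d2 (9.75, 9.44), Sv2a (9.05, 8.84) and Hnrnpa2b1 (10.52, 10.62) on array 1, Cyp46a1 (8.35, 8.71) and Abcc1 (6.02, 6.37) on array 4, Tac3 (6.14, 6.41) on array 5, Aplp1 (10.84, 10.67) on array 6 and Arhgap33 (7.78, 8.13) on array 7.

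The difference between the drugs itself differed between regions for 12 named genes, by limma's interaction term. For hippocampus minus brainstem it was -1.57 for Rad23b, -1.10 for Rhoa, -1.62 for Pafah1b1, -1.40 for Hspa4, -1.14 for a dim probe set of Elk1 and 0.72 for Cnp. For hippocampus minus frontal cortex it was -2.48 for Ube2d2, -1.94 for Serinc1, -2.37 for Pdcd4, -2.78 for Klhl2, -2.19 for Slc4a10 and -2.34 for Arid1b. The causes were not tested.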

How the results depend on the processing

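There were 17 other settings and 14 fits that left out 1 array. A gene was read in at most 15 of the 17, and in fewer where its probe set was not in the fit. All 24 genes with the smallest p passed in every one of these fits in which they were read. Of 143 named hippocampus genes that passed, 65 did so in every fit in which they were read. With the Gapdh ratio as a covariate 72 were lost, with the actin ratio 29 and when some array was left out 30, and 0 changed direction. The 3123 probe sets became 956 (444 higher, 512 lower) with the Gapdh ratio, 4693 (2298 higher) at a threshold of 0.1 and 1872 (849 lower) with 1 probe set per gene, where the cortex interaction counted 2345. With array weights 2291 were higher. Leaving out 1 array gave 2212 (without phenytoin array 3) to 3879 (without phenytoin array 5).

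The 13 brainstem interactions became 0 with values as deposited, no filter, the Gapdh ratio, the actin ratio or 1 probe set per gene, 24 with the dimmest 60 percent left out, 105 with array weights, 30 at a threshold of 0.1, 1 without levetiracetam brainstem arrays 1 and 2, whose labels name both drugs, 27 without phenytoin array 7 and control array 1 together, and 0 to 56 when 1 array was left out. With the replicate number as a block 2648 probe sets passed, and the interactions counted 26 in brainstem and 4039 in cortex. Between the drugs in hippocampus no same-numbered array was the best match of its own number, which cannot settle whether the numbers pair the rats. Whether a number stands for the same rat across regions was not tested.

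Genes that had not passed changed sign. Sv2b was 0.049 with array weights and 0.015 without phenytoin array 7 and control array 1, and ran from -0.165 to 0.015 when 1 array was left out. Scn4b was -0.014 with weights, -0.00019 with the Gapdh ratio and -0.073 without those arrays, with a range of -0.073 to 0.562. Scn8a was 0.102 with the Gapdh ratio, 0.031 with the actin ratio and 0.041 without those arrays, with a range of -0.101 to 0.041. Scn3b was 0.045 without those arrays, with a range of -0.327 to 0.045, and Scn2a had a range of -0.027 to 0.093. The cause was not tested. Array number and signal over background limit the dim genes.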

Other observations

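Among the genes with probe sets that passed in opposite directions, singled out after their values were seen, Anks1b, a postsynaptic ankyrin repeat protein, was higher with phenytoin on a probe set at 10.4 (0.50) and lower on another at 9.07 (-0.66). Bcl11b, a zinc finger factor of neurons, gave 0.58 and -0.51, and Prkacb, a catalytic subunit of protein kinase A, gave 0.39, -0.30 and -0.48.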
